A study of Mus musculus with 8 samples.

Results

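The polo-like kinase genes Plk1, Plk2, Plk3, Plk4 and Plk5 were followed in whole cortex of mice labelled Mef2c heterozygous or Mef2c wild type. The 5 genes were taken by name from the 22000 rows of the deposited count table, and all 5 were among the 13879 genes that passed the filter on low counts. The family was chosen by the counts of Plk5 in these same libraries, in which it was among the genes called between the genotypes, so the genotype values of the 5 genes are given below as a description and not as evidence of a difference.

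Messenger RNA of the whole cortex was sequenced after poly-A selection in 8 mice, 1 library per mouse. The group labelled Mef2c heterozygous held 2 males and 2 females, and the group labelled Mef2c wild type likewise 2 males and 2 females. No treatment is labelled, and the sources used here give neither age nor strain nor the part of Mef2c that was altered. The animal numbers in the titles fall into a lower or first run and a higher or second run, separated by a gap, each with 1 male and 1 female of either genotype, and the labels do not say what the runs stand for.

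Total counts lay between 16092773 and 17841377 reads per library. Mef2c, which codes for a transcription factor of neurons and microglia, was higher in the libraries labelled heterozygous (1304 ± 73.2 CPM, SD, n = 4) than in those labelled wild type (995 ± 41.3 CPM, SD, n = 4), where CPM is the read count per library size after scaling. This goes against the label for a lost transcript, so directions below are those of the labels. The cortical glutamatergic marker Slc17a7 lay between 1776 and 2030 CPM, and the cerebellar granule neuron marker Gabra6 held no read. In whole tissue, fewer cells of a type and less RNA per cell cannot be told apart.

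Polo-like kinases are a family of serine and threonine kinases with a polo-box region. In Plk1 this region finds substrates by binding proteins already phosphorylated by another kinase. Plk1 drives entry into mitosis and spindle assembly, and Plk4 starts the duplication of centrioles, so both are known mainly from dividing cells. Plk2 and Plk3 are early-response genes: in neurons Plk2 is induced by synaptic activity and acts on regulators of dendritic spines, and Plk3 is known from the response to DNA damage and other stress. Plk5 is the unusual member. The human protein lacks the kinase domain, the gene is expressed mostly in brain, and it has been linked to the growth of neurites rather than to cell division.

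The stretches upstream of 3 of the genes are shown: Plk5 because it was the member called between the genotypes, Plk4 because it was the member with a MEF2 box, and Plk2 because it was the member with the highest level. Each runs from 250 bases before to 50 bases after the RefSeq gene start in build GRCm38.p6, 5′ to 3′ on the strand of the gene. Capitals mark GC boxes (GGGCGG on either strand) and the CCAAT box in Plk5 at chr10:80356209-80356508 (plus strand), the MEF2 box in Plk4 at chr3:40799701-40800000 (plus strand), and the cyclic AMP response element TGACGTCA in Plk2 at chr13:110394794-110395093 (plus strand).
Plk5: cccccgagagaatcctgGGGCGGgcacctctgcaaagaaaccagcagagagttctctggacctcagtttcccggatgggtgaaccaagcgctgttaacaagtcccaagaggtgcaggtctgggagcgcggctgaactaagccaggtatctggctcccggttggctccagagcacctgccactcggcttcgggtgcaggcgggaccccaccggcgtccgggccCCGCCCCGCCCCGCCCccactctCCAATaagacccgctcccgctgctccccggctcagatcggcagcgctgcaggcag
Plk4: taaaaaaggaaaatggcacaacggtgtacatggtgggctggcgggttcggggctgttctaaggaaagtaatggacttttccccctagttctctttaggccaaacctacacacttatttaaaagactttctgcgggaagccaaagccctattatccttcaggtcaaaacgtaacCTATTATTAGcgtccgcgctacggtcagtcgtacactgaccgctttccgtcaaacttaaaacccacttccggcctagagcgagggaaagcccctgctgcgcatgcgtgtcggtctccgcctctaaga
Plk2: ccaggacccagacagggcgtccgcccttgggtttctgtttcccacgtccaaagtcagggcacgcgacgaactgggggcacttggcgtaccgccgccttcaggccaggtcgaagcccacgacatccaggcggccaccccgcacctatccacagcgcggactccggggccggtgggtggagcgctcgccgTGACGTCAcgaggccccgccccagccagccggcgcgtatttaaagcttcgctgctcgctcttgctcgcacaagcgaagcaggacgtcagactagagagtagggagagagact

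All 5 genes had an entry in the RefSeq promoter table, and the motifs were searched on both strands in these 300-base windows and in 32544 such windows in all. The MEF2 box, the sequence that MEF2 proteins bind, had a match in Plk4, at position -77 from the gene start, and 3.16% of all windows held a match. No window of Plk1, Plk2, Plk3 or Plk5 held those letters, and none of the 5 held the box of the serum response factor, which 1.64% of all windows held.

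The full cyclic AMP response element stood in Plk2 at position -62, and 1.80% of all windows held it. Plk5 held 4 GC boxes, of which 3 start at positions -28, -23 and -18 and share their end bases, and a CCAAT box at position -5, motifs that 35.9% and 37.4% of all windows held. Plk1 held a CCAAT box at position -14 and the cell cycle element TTTGAA at position 31, which 17.8% of all windows held. The letters TATAAA, in 13.6% of all windows, were in none of the 5. A match describes the letters of a window and is no measurement of binding.

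Plk2 made up most of the family's transcripts in cortex. Levels per length were computed as RPKM, the CPM per kilobase of annotated exon, with exonic lengths of 2199 bases for Plk1, 4491 for Plk2, 2531 for Plk3, 6855 for Plk4 and 2678 for Plk5. On this scale Plk2 had 42.0 ± 2.49 RPKM (SD, n = 8), Plk3 7.89 ± 1.33, Plk5 3.81 ± 1.49, Plk1 0.659 ± 0.131 and Plk4 0.523 ± 0.0980. The genes of the early response thus stood above those of mitosis and centriole duplication, with Plk5 between them.

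The order held in every library for its upper steps. Plk2 was above Plk3 in 8 of 8 libraries, by 4.39- to 6.93-fold in RPKM, and Plk3 was above Plk5 in 8 of 8, by 1.196- to 5.23-fold. Plk5 was above Plk1 in 8 of 8, by 3.10- to 9.74-fold. Plk1 and Plk4 did not separate beyond their spread in RPKM. The ratio of Plk1 to Plk4 ran from 0.834 to 2.10 and was above 1 in 7 of 8 libraries. This comparison rests on the exonic lengths, which span 10 annotated transcripts for Plk4 and 3 for Plk1. In CPM, without a length, Plk4 had the higher mean, 3.58 against 1.45 for Plk1.

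**Figure D1:**
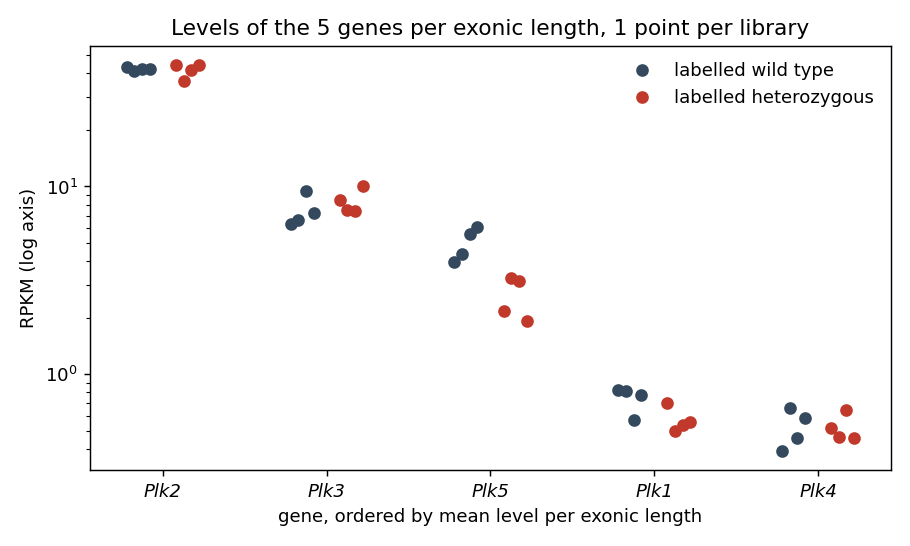
RPKM (log axis) of each polo-like kinase gene, ordered by mean level, with 1 point per library and colours for the labelled genotype. Plk2 lies highest at 42.0 RPKM on average, Plk5 is the gene whose 2 colours do not overlap, and Plk1 and Plk4 share the lowest range.

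In terms of reads, Plk2 had a higher CPM than 91.8% of the 13879 tested genes, Plk3 than 43.1%, Plk5 than 29.4%, Plk4 than 15.3% and Plk1 than 6.76%. Plk1 therefore rests on 19 to 31 reads per library and Plk4 on 46 to 79, against 92 to 268 for Plk5, 273 to 455 for Plk3 and 2820 to 3540 for Plk2. At 19 reads the counting error alone is 22.9% of the value.

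Plk5 (ENSMUSG00000035486.14, protein coding, chr10:80356459-80365489 on the plus strand in GRCm38, with up to 15 exons in a transcript) was lower in the libraries labelled heterozygous. Its level was 5.81, 8.70, 8.45 and 5.15 CPM in heterozygous replicates 1 to 4. In wild type replicates 1 to 4 it was 10.6, 11.8, 14.95 and 16.2 CPM. Every library labelled heterozygous lay below every library labelled wild type. Means were 7.03 ± 1.81 CPM against 13.4 ± 2.65 CPM (SD, n = 4 each), a log2 fold change of -0.93 ± 0.18 (SE), that is, 1.91-fold lower. These are the values by which the gene was picked.

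Plk5 was 1 of the 19 genes called lower by edgeR's quasi-likelihood test, with a Benjamini-Hochberg adjusted p of 0.0439 against a threshold of 0.05. Of all 13879 genes tested, 0.137% were called lower and 0.267% in either direction, and 2.38% had all libraries labelled heterozygous below all labelled wild type. The call depended on single libraries. Leaving out 1 library ended it in 5 of 8 cases in edgeR's test. These were heterozygous replicates 1 and 4, with log2 fold changes of -0.84 and -0.79 and adjusted p of 0.0777 and 0.0868 without them, and wild type replicates 2, 3 and 4, with -1.002, -0.86 and -0.79 and adjusted p of 0.0719, 0.141 and 0.139.

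The spread of Plk5 within a genotype was wider than counting error alone. Its coefficient of variation was 25.8% in the libraries labelled heterozygous and 19.8% in those labelled wild type, while the counting error of a single library ran from 6.11% at 268 reads to 10.4% at 92 reads. Over the fit of all genes the biological coefficient of variation was 16.6% for Plk5 and 8.70% for the median gene.

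Plk5 was lower in both sexes and in both runs of animal numbers. The genotypes did not overlap, so any split of the libraries had to give that direction. In females it had 6.93 ± 2.51 CPM in the libraries labelled heterozygous and 13.4 ± 4.00 in those labelled wild type (SD, n = 2 each), and in males 7.13 ± 1.87 and 13.4 ± 2.27. Fitted within a sex, the log2 fold change was -0.95 in females and -0.91 in males.

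In the first run the means were 7.25 ± 2.05 CPM and 11.2 ± 0.818 CPM, and in the second 6.80 ± 2.33 CPM and 15.6 ± 0.911 CPM (SD, n = 2 each), with log2 fold changes of -0.62 and -1.21 fitted within a run. The libraries labelled wild type were higher in the second run than in the first, whereas those labelled heterozygous overlapped between the runs. A test of this difference, chosen after the values were seen, gave a log2 difference of -0.59 (95% interval -1.24 to 0.0691) for Plk5, with an adjusted p of 0.999 by edgeR's test, so a difference between the runs was not shown. In that test 0.00721% of genes were called.

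**Figure D2:**
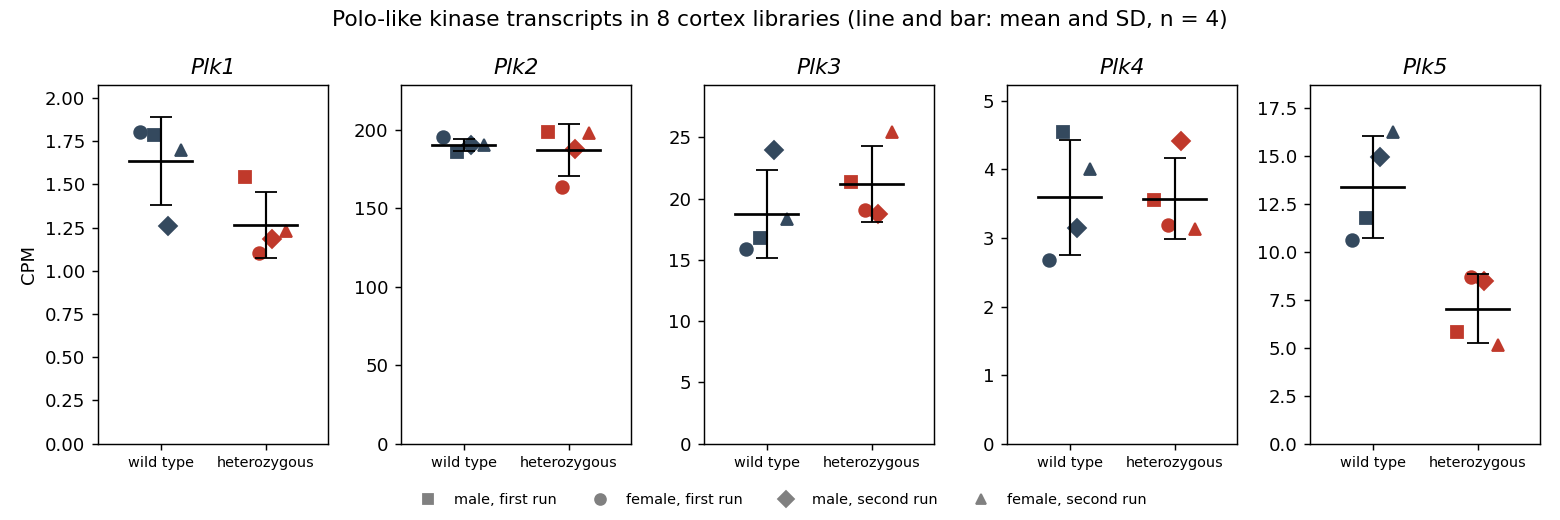
CPM (vertical axis, from 0) of each polo-like kinase gene in the 4 libraries labelled wild type and the 4 labelled heterozygous, with symbols for sex and run of animal numbers, and lines and bars for mean and SD. The Plk5 points of the genotypes do not overlap (5.15 to 8.70 against 10.6 to 16.2 CPM), while those of the other 4 genes do.

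Plk2, the abundant activity-induced member (ENSMUSG00000021701.8, chr13:110395046-110400844 on the plus strand), had 199, 164, 188 and 198 CPM in heterozygous replicates 1 to 4 and 195, 186, 190 and 190 CPM in wild type replicates 1 to 4. The groups overlapped, and heterozygous replicate 2 was the lowest library. The log2 fold change was -0.026 with a 95% interval from -0.146 to 0.0948, the narrowest of the family. Plk2 lies 26.7 Mb from Mef2c on the same chromosome. Its coefficient of variation was 8.78% in the libraries labelled heterozygous and 2.04% in those labelled wild type.

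Plk3, the stress-responsive member (ENSMUSG00000028680.14, chr4:117128655-117133963 on the minus strand), had 21.4, 19.1, 18.8 and 25.5 CPM in heterozygous replicates 1 to 4 and 15.9, 16.8, 24.0 and 18.4 CPM in wild type replicates 1 to 4. The groups overlapped, with 1 high library in each, heterozygous replicate 4 and wild type replicate 3. The log2 fold change was 0.18 (95% interval -0.0967 to 0.455). Plk3 shares 84 exonic bases with Tctex1d4 on the opposite strand, whose row held 12 reads over all 8 libraries.

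Plk1, the mitotic member (ENSMUSG00000030867.7, chr7:122159439-122169873 on the plus strand), had 1.54, 1.10, 1.18 and 1.23 CPM in heterozygous replicates 1 to 4 and 1.80, 1.79, 1.26 and 1.70 CPM in wild type replicates 1 to 4. Wild type replicate 3 lay within the range of the libraries labelled heterozygous. The log2 fold change was -0.37 with a 95% interval from -1.02 to 0.275, an interval that reaches a 2-fold lower level. The spread of 15.2% and 15.6% within the genotypes was no larger than the counting error of 17.96% to 22.9%. Plk1 shares 156 exonic bases with the unclassified gene Gm44985 on the opposite strand, and a pseudogene of Plk1 is annotated elsewhere in the genome, so its few reads are uncertain.

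Plk4, the centriole kinase gene (ENSMUSG00000025758.10, chr3:40800019-40816883 on the plus strand), had 3.55, 3.19, 4.41 and 3.14 CPM in heterozygous replicates 1 to 4 and 2.68, 4.55, 3.15 and 4.00 CPM in wild type replicates 1 to 4. The groups overlapped fully, with the lowest and the highest library both labelled wild type. The log2 fold change was -0.012 (95% interval -0.464 to 0.439). None of Plk1, Plk2, Plk3 and Plk4 was called between the genotypes, against 0.267% of all genes.

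The balance within the family differed accordingly between the labelled genotypes. Of the summed RPKM of the 5 genes, Plk5 made up 3.37% to 6.74% in the libraries labelled heterozygous and 7.20% to 10.6% in those labelled wild type, without overlap. Plk2 made up 77.5% ± 1.41 and 75.7% ± 2.93 (SD, n = 4 each), with overlap. The ratio of Plk3 to Plk5 in RPKM was 3.45 ± 1.398 against 1.498 ± 0.214 (SD, n = 4 each) and did not overlap. These ratios restate the Plk5 values and are no separate evidence.

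Sex and the runs of animal numbers were not used to pick the genes and were tested. Between the sexes edgeR's quasi-likelihood test called no polo-like kinase gene, where 0.0288% of all genes were called. Male minus female log2 differences were 0.02 for Plk5 (95% interval -0.371 to 0.402), 0.03 for Plk2 (-0.091 to 0.150), 0.05 for Plk3 (-0.228 to 0.323), 0.27 for Plk4 (-0.183 to 0.721) and -0.002 for Plk1 (-0.667 to 0.664). The unadjusted p ran from 0.230 to 0.996 and the adjusted p was 1 for each gene in edgeR's test. A sex difference of 2-fold lies outside each of these intervals.

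Whether the genotype difference itself differed between the sexes was tested with an interaction term. Plk5 had an interaction of 0.05 on the log2 scale (95% interval -0.801 to 0.895), Plk2 one of 0.13 (-0.118 to 0.379) and Plk3 one of -0.40 (-0.927 to 0.123). Plk1 and Plk4 had 0.42 (-0.901 to 1.75) and 0.12 (-0.815 to 1.06). edgeR's quasi-likelihood test called none of them, and in it 0% of all genes were called (0 of 13879, with 366 at an unadjusted p under 0.05, and 0 by the DESeq2 Wald test). For Plk3 the female libraries did not overlap (19.1 and 25.5 CPM labelled heterozygous, 15.9 and 18.4 labelled wild type), while the male libraries did. The same held for Plk1, with 1.10 and 1.23 CPM in females labelled heterozygous and 1.80 and 1.70 in those labelled wild type. With so few libraries such a split is easily met, and its share over all genes was not counted.

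Between the runs of animal numbers no polo-like kinase gene was called, where 0.382% of all genes were. The second minus first log2 difference was 0.25 for Plk3 (95% interval 0.0163 to 0.486), with an unadjusted p of 0.0371 and an adjusted p of 0.446 from edgeR. Leaving out wild type replicate 3 gave 0.13, leaving out heterozygous replicate 4 gave 0.15 and leaving out heterozygous replicate 3 gave 0.39, with adjusted p of 0.832, 0.844 and 0.177 in edgeR. Plk5 had 0.22 (-0.149 to 0.590), Plk4 0.08 (-0.366 to 0.529), Plk2 0.04 (-0.0715 to 0.160) and Plk1 -0.21 (-0.855 to 0.435).

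**Figure D3:**
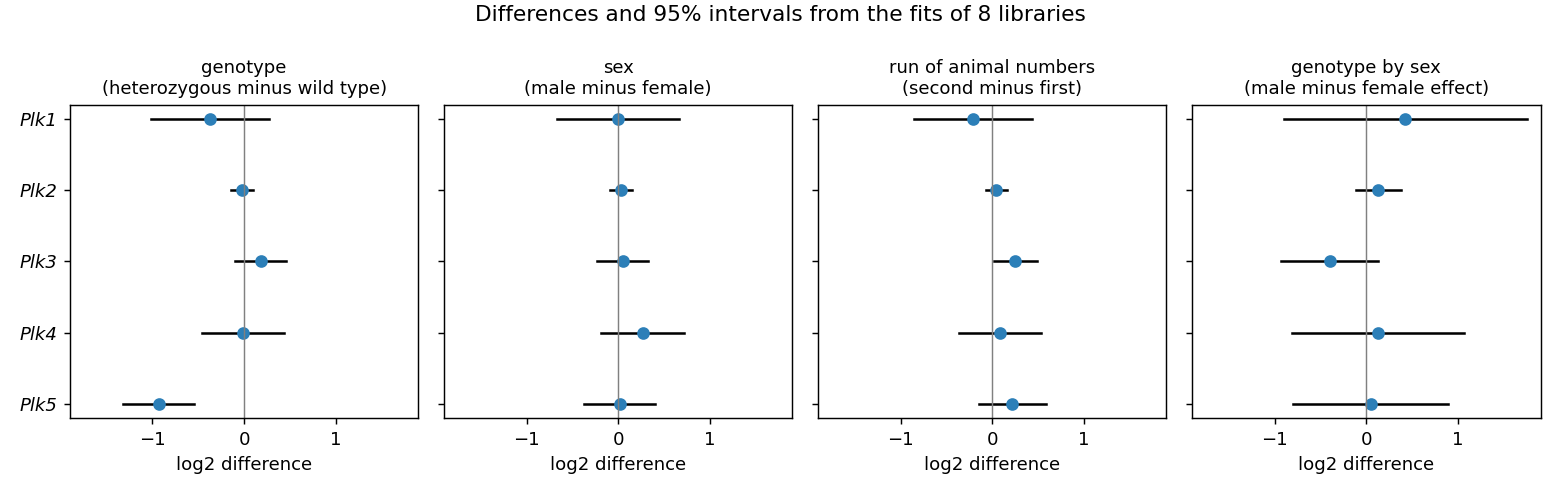
Log2 differences (horizontal axis) of the 5 polo-like kinase genes with 95% intervals, from edgeR fits of all 8 libraries, for genotype, sex, run of animal numbers and the interaction of genotype and sex. The genotype interval of Plk5 lies away from 0 (-1.32 to -0.542), which is how the gene was picked, and that of Plk3 between the runs lies just above 0 (0.0163 to 0.486) without a call.

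No gene next to Plk5 was called. Of the 12 tested genes within 100 kb, edgeR's test called 0, with 1, Reep6, at an unadjusted p under 0.05 and 0 called by the DESeq2 Wald test. Of all 13879 genes tested, 0.267% were called and 7.24% had an unadjusted p under 0.05, so no call among 12 genes is near that background. Their log2 fold changes ran from -0.26 to 0.21 with a median of 0.001, and over all genes tested the median was -0.001. The nearest was Adamtsl5, a gene of a secreted matrix protein 8047 bases away, with -0.20 ± 0.21 (SE). Mex3d, an RNA-binding protein gene 14866 bases away on the other side, had 0.07 ± 0.11 (SE). No annotated gene overlapped Plk5.

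**Figure D4:**
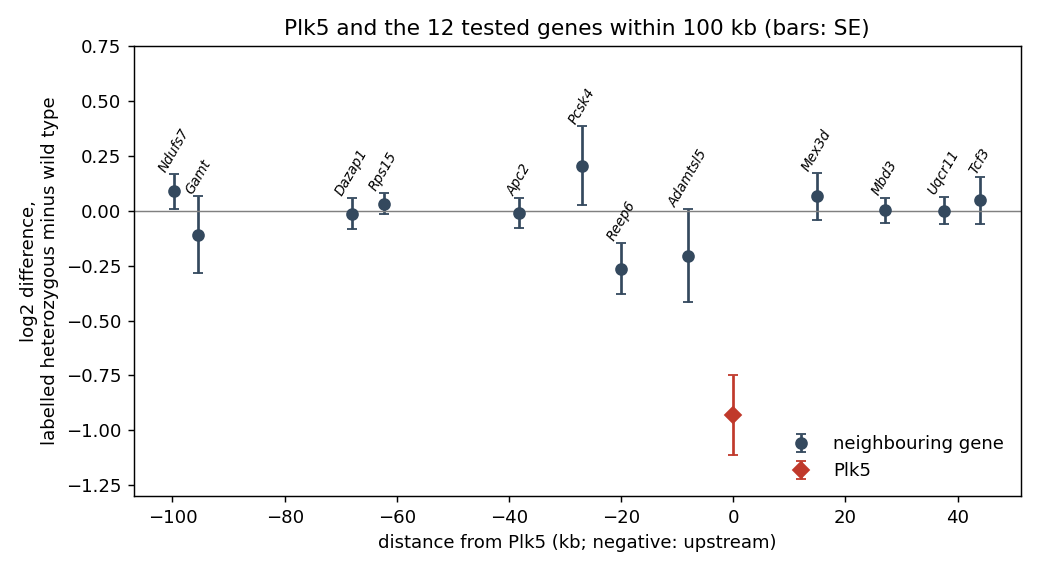
Log2 difference between the labelled genotypes (vertical axis, with SE bars) of Plk5 and of the 12 tested genes within 100 kb, against distance from Plk5 in kb. Plk5 stands at -0.93, and the neighbours lie between -0.26 and 0.21.

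By likeness over the 8 libraries, the 5 genes closest to Plk5 among 12589 compared were Nup54, Pknox1, Zfp930, Rnf213 and RP23-313O9.1, with Pearson r of log2 CPM from 0.937 to 0.971. Nup54 codes for a nuclear pore protein, Pknox1 for a homeobox factor and Rnf213 for a ubiquitin ligase. Their log2 fold changes ran from -0.80 to -0.24, and 0 of the 5 were called, against 0.267% of all genes. Plk5 itself was split by genotype, so genes picked for likeness to it share its direction through the choice. After each genotype's mean was taken out, r ran from 0.758 to 0.908.

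Zfp945, Ptch1, Dcaf5, Magi1 and Foxo3 were closest to Plk1 (r 0.953 to 0.987), and Fads6, Dexi, Flad1, Rgl3 and Pcsk2 to Plk2 (0.935 to 0.961). Iffo1, Cyb5a, Mocs3, Tmem256 and Lhfpl4 were closest to Plk3 (0.922 to 0.952), and Slc25a38, Gjd2, Cntnap4, Pygo1 and Rps19bp1 to Plk4 (0.931 to 0.966). The points share libraries and depth, and these are the highest of many values over 8 points, given as a description. No polo-like kinase gene was among the closest of another: r between members ran from -0.60 to 0.45.

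Genes that work with the kinases were followed in lists, each set beside the 0.267% of all genes called, the 7.24% at an unadjusted p under 0.05 and the median log2 fold change of -0.001 over all genes. Of the mitotic partners of Plk1, 24 of 32 were tested and 0 called, with 0 at an unadjusted p under 0.05, 12 above and 12 below 0, and a median of -0.01. The mitosis inhibitor gene Wee1 had 30.3 ± 2.62 against 33.8 ± 3.05 CPM and the chromosomal passenger gene Incenp 15.4 ± 2.74 against 18.3 ± 3.99 CPM (heterozygous first, SD, n = 4 each). Of the centriole duplication partners of Plk4, 20 of 21 were tested and 0 called, with 0 at an unadjusted p under 0.05 and a median of -0.03. Centrin gene Cetn3 had a log2 fold change of 0.13 and the pericentrin gene Pcnt one of -0.14.

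Of the synaptic substrates and partners of Plk2, all 20 were tested and 0 called by edgeR's test, with 2 at an unadjusted p under 0.05 and a median of 0.02. These were Sipa1l3, a relative of the spine regulator SPAR, at 64.6 ± 4.67 against 55.5 ± 2.36 CPM, and the Ras exchange factor gene Rasgrf1, at 455 ± 19.4 against 416 ± 16.7 CPM (heterozygous first, SD, n = 4 each), with adjusted p of 0.238 and 0.422 in edgeR's test. Of the neurotrophin and Ras pathway, in which Plk5 has been placed, 22 of 24 genes were tested and 0 called, with 4 at an unadjusted p under 0.05 and a median of 0.02. Rasgrf1, given above, was also a member of this list.

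Of the activity-induced genes, a class to which Plk2 is assigned, 35 of 36 were tested and 0 called, with 3 at an unadjusted p under 0.05 and a median of 0.04. The early-response factor gene Egr4 had 40.4 ± 4.99 against 53.6 ± 8.61 CPM and Egr3 246 ± 26.4 against 304 ± 33.7 CPM (heterozygous first, SD, n = 4 each), with log2 fold changes of -0.41 and -0.30 and adjusted p of 0.344 and 0.469 in edgeR's test. Over the list 20 genes were above 0 and 15 below, from Egr2 at -0.42 to Maff at 0.44. The DESeq2 Wald test called Egr4 (adjusted p 0.0481), where it called 80 of 13879 genes in all. In edgeR, Egr3 was called without wild type replicate 4 (adjusted p 0.0424, 32 genes called in all). It was also called with the run as a term (0.00702, 72 genes in all). Homer1, a postsynaptic scaffold gene, was called in edgeR without heterozygous replicate 2 (adjusted p 0.00689, 24 genes in all). Of the p53 and DNA damage genes, 21 of 22 were tested and 0 called, with 3 at an unadjusted p under 0.05 and a median of 0.07. The cell cycle inhibitor gene Cdkn1a had 18.8 ± 3.37 against 25.5 ± 4.21 CPM, with a log2 fold change of -0.44 and an adjusted p of 0.297, and was called with the run as a term (0.0247 in edgeR's test). Trp53 had a log2 fold change of 0.27.

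Markers of cell types and neighbouring regions were summed per library beside the Plk5 result. The sum of 10 dentate gyrus and hippocampus markers was 338 to 368 CPM in the libraries labelled heterozygous and 292 to 312 CPM in those labelled wild type, and that of 10 astrocyte markers 4503 to 4825 against 4854 to 4911 CPM, neither with overlap. Among single tested genes 2.38% were lower without overlap, and shares for higher genes and for sums are not given. Of the hippocampal list 2 of 9 tested members, Fibcd1 and Wfs1, were called, both higher, and of the astrocyte list 0 of 10, with 2 at an unadjusted p under 0.05, where 0.267% of all genes were called and 7.24% had such a p. Log2 fold changes were above 0 in 7 hippocampal members and below 0 in 2, the lowest being C1ql2 at -0.22. Of the astrocyte members 2 were above 0 and 8 below, the highest being Gfap at 0.36. No marker in these lists was without reads. Over the 8 libraries, which share the genotype split and their depth, the mean log2 CPM of the hippocampal list had a Pearson r with Plk5 of -0.66, the farthest from 0 of the 13 lists, and that of the astrocyte list -0.14. With each genotype's mean taken out these were -0.12 and -0.62, and the 13 lists ran from -0.67 (oligodendrocyte precursors) to 0.74 (cerebellar granule neurons). Their part in the Plk5 result was not tested. The sums of the other 11 lists overlapped between the genotypes. Striatum markers had 292 to 403 against 302 to 337 CPM, with all 8 tested members above 0 in log2 fold change, a median of 0.20, 1 at an unadjusted p under 0.05 and 0 called. Microglia markers had 283 to 327 against 275 to 295 CPM, with 5 of 9 above 0, a median of 0.13, 3 at an unadjusted p under 0.05 and 0 called. Excitatory neuron markers had 2769 to 2987 against 2685 to 2862 CPM, with 7 of 10 above 0 and a median of 0.06. Of these, 4 had an unadjusted p under 0.05 and 0 were called. Interneuron markers had 1180 to 1285 against 1115 to 1241 CPM, with 5 of 10 above 0, 2 at such a p and 0 called. Oligodendrocyte markers had 6274 to 8020 against 6569 to 7504 CPM, precursors 715 to 757 against 702 to 762, endothelial cells 208 to 310 against 205 to 284. Ependymal markers had 19.4 to 21.6 against 20.9 to 21.8 CPM and choroid plexus markers 4.38 to 8.24 against 4.18 to 6.61 CPM. Cerebellar granule neuron markers had 49.6 to 61.0 against 52.8 to 58.2 CPM, with Gabra6 and Tlx3 at 0. Markers of dividing progenitors had 10.04 to 19.4 against 9.62 to 15.9 CPM.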

How the data were processed

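Per the labels' protocols, RNA of whole cortex was poly-A selected, and samples were randomised before sequencing. The deposited values are raw read counts for each gene symbol. The submitters' processing notes name STAR 2.5.2b, HTSeq and build mm10. No source used here states the annotation, the strand setting or the handling of reads shared between genes.

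Genes with enough reads by edgeR's filterByExpr (minimum count 10, by genotype) were tested, 13879 genes holding 99.95% of the reads, after TMM scaling. Tests were quasi-likelihood F-tests in edgeR 4.0.16 (R 4.3.3, robust), fitted to sex and genotype and adjusted over all genes by Benjamini-Hochberg. An interaction with sex, or the run of animal numbers, was added for those questions. RPKM used the exonic length of GENCODE M21 (GRCm38). Likeness used log2 CPM with a pseudocount of 0.5 CPM. The pipeline was tested on simulated counts drawn without effects of sex or run, so that test does not bear on the Plk5 call. Within a genotype, all pairs of libraries differed beyond sampling noise (chi-square per degree of freedom of 4.12 or more).

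The genes and lists were chosen with earlier results of these data known. Named genes are the 5 members, Mef2c, the called members and the 2 of smallest p of each pathway list, and the 5 most alike genes; 1 gene that this rule names is not reported here. Plk5 neighbours, overlapping genes, markers and genes called under alternatives are named besides. Alternatives were DESeq2 (1.42.0) size factors and Wald test, no filter, a filter of 1 CPM in 4 libraries, other covariates, subsets by sex and run, and each library left out.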

Additional observations from a re-analysis of the deposited data

How the results depend on the processing

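The count of genes called between the genotypes was 37, and it was 82 without a filter, 80 with the DESeq2 Wald test and 72 with the run of animal numbers as a further term. With each library left out it ran from 19 to 80, with 80 without heterozygous replicate 1, 24 without heterozygous replicate 2, 23 without wild type replicate 1 and 19 without wild type replicate 2. The count for the runs was 53 and became 95 without a filter, and with each library left out it ran from 11 to 77, the counts without heterozygous replicates 1 to 4 being 23, 27, 17 and 11. Counts for sex ran from 2 (without wild type replicate 3) to 6, and those for the interaction with sex from 0 to 2, with 1 without heterozygous replicate 2 or wild type replicate 4 and 2 without heterozygous replicate 3.

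Plk5 had a log2 fold change below 0 in all 18 alternatives, from -1.21 in the second run to -0.62 in the first, and -1.08 to -0.79 with each library left out. Since the genotypes did not overlap in Plk5, leaving out or splitting libraries could not change that sign. The adjusted p of edgeR or DESeq2 ran from 0.000744 to 0.442, and the call ended in 8 of the 18: the 5 leave-outs given above, either sex alone (0.442 in females and 0.308 in males) and the first run alone (0.387). Subsets of 4 libraries have fewer samples by construction. The difference of the Plk5 effect between runs ran from -1.04 to -0.17.

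Values close to 0 changed sign. In males alone the genotype log2 fold change was 0.041 for Plk2, -0.020 for Plk3 and 0.050 for Plk4, and in the second run alone 0.022 for Plk2 and 0.074 for Plk4. With each library left out it ran from -0.069 to 0.040 for Plk2 and -0.12 to 0.12 for Plk4. The sex difference ran from -0.12 to 0.14 for Plk1 (0.0023 in the DESeq2 Wald test), -0.036 to 0.073 for Plk2, -0.10 to 0.18 for Plk3 and -0.11 to 0.17 for Plk5. The interaction with sex ran from -0.0010 to 0.28 for Plk2, -0.19 to 0.41 for Plk4 and -0.29 to 0.47 for Plk5, and the run difference from -0.027 to 0.095 for Plk2 and -0.059 to 0.25 for Plk4. No polo-like kinase gene other than Plk5 was called under any of these alternatives. The cause was not tested.

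The labels give no replicate number or litter that ties a heterozygous mouse to a wild type one, so no such pairing was possible. Each combination of sex and run held 1 mouse of each genotype, but a fit with these combinations as pairs was not run. The fit with sex and run as separate terms, which gave the 72 calls above, had a Plk5 adjusted p of 0.0229 in edgeR. Depth limits Plk1 and Plk4 most, and p-values and intervals rest on 4 mice per genotype.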
